A study of Mus musculus with 29 samples.

Results

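The Hox genes of the mouse encode homeodomain transcription factors that lie in 4 clusters, HoxA on chromosome 6, HoxB on chromosome 11, HoxC on chromosome 15 and HoxD on chromosome 2. The members described here are the genes with a cluster letter and a paralogue number in their symbol that had a probe set annotated to them alone. They were 36 of the 22180 genes with such a probe set among the 41345 probe sets of the array, with 9 members in HoxA, 10 in HoxB, 9 in HoxC and 8 in HoxD. For a gene with more than 1 such probe set, that with the highest mean over the 29 arrays was used. Hoxa11 and Hoxd4 appeared only in probe sets that list several genes and were not analysed here.

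Within each cluster the genes stand in the order of their paralogue numbers, and genes with the same number in different clusters descend from one ancestral gene. Low numbers are used toward the head of the embryo and high numbers toward the tail, and adult tissues such as the gut keep part of this pattern. The genes are set out below as anterior (1 to 4), central (5 to 8) and posterior (9 to 13). Posterior HoxA and HoxD genes, with Hoxa13 and Hoxd13 at the end, pattern the hindgut, the anus and the urogenital tract.

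RNA of the distal colon was hybridised to 29 Affymetrix arrays, 1 for each sample. The untreated groups held 8 wild-type (WT) and 8 Cygb-/- samples, and the groups given AOM and DSS held 8 WT and 5 Cygb-/- samples. All were female C57BL/6 mice 18 to 24 weeks old. The Cygb-/- mice lacked an exon of Cygb, the gene of the haem protein cytoglobin, in all cells from conception, and came from stem cells of another mouse strain backcrossed to C57BL/6J. AOM, azoxymethane, is a colon carcinogen and was injected at 7.4 mg/kg. DSS, dextran sulphate sodium, damages the colonic epithelium and was given at 3% in the drinking water for 7 days. The labels describe 1 cycle and tissue taken in week 5, 3 weeks after DSS, whereas the study's methods describe a further cycle and a later week, and this was not settled here. AOM and DSS were given to the same mice, so their parts cannot be told apart. The methods also describe separate cohorts and mention the untreated controls with a different cohort from the treated mice used for arrays. A cohort difference cannot be told apart from treatment here. The values are RMA log2 values, so a difference of 1 is a change of 2-fold, and SE is the standard error of such a difference. Unless another test or setting is named, p-values are from limma, 2-sided and, where called adjusted, corrected across every probe set by the Benjamini-Hochberg method. A difference was called where the adjusted p was under 0.05. The labels call the arrays of a group biological replicates.

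The Cygb probe set was lower in Cygb-/- than in WT colons, with a log2 difference of -2.66 without treatment and -2.73 after AOM/DSS, in the direction of the labels. One array did not match its labelled sex. In replicate 3 of the treated Cygb-/- group the log2 value of Xist, the RNA of the silenced X chromosome, was 3.82, against 10.64 to 11.15 on the other 28 arrays, while its Y-linked genes reached at most 2.44. Without this array 5 members were higher and 9 lower in treated Cygb-/- colons, and with it 5 were higher and 10 lower. The marker lists moved with treatment: 8 of 8 leukocyte, 6 of 7 fibroblast and 6 of 9 squamous epithelium markers were higher in both genotypes, 8 of 8 smooth muscle markers were lower in both, and 4 of 9 colonocyte markers were lower in WT mice and 5 of 9 in Cygb-/- mice. Of the markers of enteric neurons and glia 3 of 5 were lower in both genotypes, with 1 higher in Cygb-/- mice, and of endothelial markers 3 of 4 were higher in WT and 4 of 4 in Cygb-/- mice. These are bulk samples, in which fewer cells of a type and less RNA per cell cannot be told apart. A response to treatment also cannot be told apart from a difference in the place along the colon that was sampled. Such a difference was not tested.

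After AOM/DSS the clusters moved in different directions. HoxB genes from Hoxb3 to Hoxb9 fell in both genotypes, Hoxa9, Hoxa10, Hoxd11, Hoxd12 and Hoxd13 rose in both, and HoxC genes had values near the low end of the array scale. In WT mice 7 of 36 members were higher, beside 12.5% of all probe sets, and 12 were lower, beside 14.3%. In Cygb-/- mice 5 were higher, beside 12.6%, and 10 were lower, beside 13.5%. The median log2 fold change of the 36 members was -0.16 in WT and -0.15 in Cygb-/- mice, beside -0.04 over all probe sets in each. Of the members called in WT mice, 5 of the 7 higher and 9 of the 12 lower were called the same way in Cygb-/- mice, where they made up 5 of 5 and 9 of 10.

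**Figure D1:**
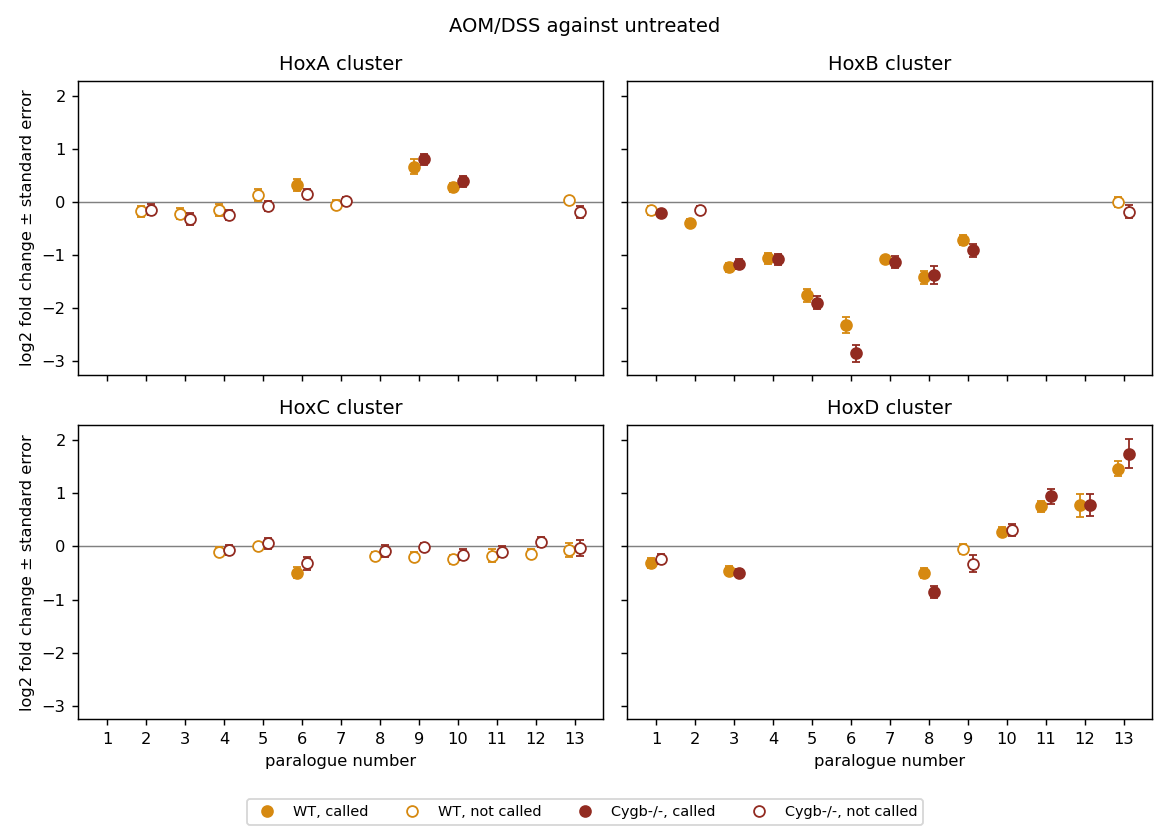
Log2 fold change of AOM/DSS against untreated colons (vertical axis, with bars of 1 standard error) for each of the 36 members by paralogue number (horizontal axis) in the 4 clusters, in WT and Cygb-/- mice. Filled circles were called. HoxB members 3 to 9 lie below 0, down to -2.85 for Hoxb6, and HoxD members pass from below 0 at numbers 1 to 8 to 1.75 for Hoxd13, while in HoxC only Hoxc6 in WT mice, at -0.49, was called.

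In the promoters of the members, the letters TTTATG were searched on both strands, since the caudal factors Cdx1, Cdx2 and Cdx4, which bind such letters, are known regulators of Hox genes in the embryo. The search took the 250 bases before each start in RefSeq's GRCm38.p6 table, which matched 20 of the 36 members. Among the members without an entry were Hoxb3, Hoxb5, Hoxb6, Hoxb7 and Hoxb9. The letters occurred in 4 of these 20 (Hoxa7, Hoxb8, Hoxd3 and Hoxd11) and in 10.8% of all 32851 windows. The members were counted by gene and the background by window, so these 2 figures differ in unit. Of the 4 members with a match, Hoxb8 and Hoxd3 fell and Hoxd11 rose in both genotypes, and Hoxa7 was not called. Shown are 2 genes that fell and 2 that rose, with matches in capitals. The windows are chr11:96281655-96281904 for Hoxb8, chr11:96318017-96318266 for Hoxb4, chr2:74667975-74668224 for Hoxd13 and chr2:74674763-74675012 for Hoxd12, all on the plus strand.
Hoxb8: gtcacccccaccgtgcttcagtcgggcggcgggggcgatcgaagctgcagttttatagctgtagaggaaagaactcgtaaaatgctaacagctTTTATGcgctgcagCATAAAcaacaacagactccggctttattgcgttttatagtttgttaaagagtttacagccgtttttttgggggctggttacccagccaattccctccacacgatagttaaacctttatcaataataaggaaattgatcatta
Hoxb4: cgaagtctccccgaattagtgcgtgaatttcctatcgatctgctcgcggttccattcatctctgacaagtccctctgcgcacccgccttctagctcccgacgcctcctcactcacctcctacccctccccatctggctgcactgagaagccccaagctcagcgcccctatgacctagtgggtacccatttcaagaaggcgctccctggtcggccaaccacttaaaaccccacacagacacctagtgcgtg
Hoxd13: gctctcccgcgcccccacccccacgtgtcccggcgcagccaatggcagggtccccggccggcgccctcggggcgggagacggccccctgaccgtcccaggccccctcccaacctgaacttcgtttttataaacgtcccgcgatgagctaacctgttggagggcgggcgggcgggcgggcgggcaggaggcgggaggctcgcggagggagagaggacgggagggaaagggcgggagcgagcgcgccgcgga
Hoxd12: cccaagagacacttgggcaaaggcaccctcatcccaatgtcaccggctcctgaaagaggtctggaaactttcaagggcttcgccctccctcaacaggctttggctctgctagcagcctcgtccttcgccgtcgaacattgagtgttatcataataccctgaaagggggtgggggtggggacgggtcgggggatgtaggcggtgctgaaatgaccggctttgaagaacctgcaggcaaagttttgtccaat
The Hoxb8 window held 2 matches, and the other 3 windows held 0. The share of G and C was 44.4% for Hoxb8, 58.0% for Hoxb4, 74.4% for Hoxd13 and 55.6% for Hoxd12. A match is a description of letters, and neither its presence nor its absence says whether a factor binds there.

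HoxB held most of the members that fell. Of its 10 members 8 were lower in WT and 8 in Cygb-/- mice, and none was higher in either. Among the central members Hoxb5, Hoxb6, Hoxb7 and Hoxb8 all 4 fell in both genotypes, with a median log2 fold change of -1.59 in WT and -1.63 in Cygb-/- mice. Hoxb6, a central HoxB gene active in the posterior mesoderm of the embryo, had the largest measured fall of the 36 members in both genotypes.

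The log2 value of Hoxb6 ranged from 7.64 to 8.55 (median 7.98) in the 8 untreated WT colons and from 7.92 to 8.49 (median 8.20) in the 8 untreated Cygb-/- colons. After AOM/DSS it ranged from 5.28 to 6.22 (median 5.77) in the 8 WT colons, and the 5 Cygb-/- colons had 5.23, 5.06, 5.48, 5.03 and 6.00. No treated array reached the lowest untreated one, and within each treatment the genotypes overlapped. Between treated and untreated colons the difference was -2.31 (SE 0.15, adjusted p = 8.05e-09) in WT and -2.85 (SE 0.16, adjusted p = 3.69e-08) in Cygb-/- mice, which are falls of 4.97-fold and 7.19-fold. Hoxb6 also had the smallest p of the members for the interaction of genotype and treatment. That difference of -0.53 (SE 0.23) had an unadjusted p of 0.025 and did not pass the adjustment (adjusted p = 0.512).

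Hoxb5, which acts in the migration of enteric neural crest cells in the mouse, behaved alike. Untreated WT colons had log2 values of Hoxb5 from 7.01 to 7.69 (median 7.37) and untreated Cygb-/- colons from 6.89 to 7.67 (median 7.39). Treated WT colons lay between 5.07 and 5.80 (median 5.68), and treated Cygb-/- colons had 5.71, 5.43, 5.12, 5.40 and 5.49. Treated and untreated arrays were separate in both genotypes. Hoxb5 fell by 1.75 (SE 0.12, adjusted p = 1.77e-08) in WT and by 1.89 (SE 0.13, adjusted p = 2.02e-07) in Cygb-/- mice. A second probe set of Hoxb5, with the lower mean, fell by 0.62 in both genotypes (adjusted p = 5.7e-06 in WT and 1.5e-05 in Cygb-/- mice), so the size of the fall differed between the probe sets and its direction did not.

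The neighbours of these genes in the cluster fell too. Hoxb8, a gene used in haematopoietic progenitors and the spinal cord, had untreated log2 values from 4.80 to 5.53 (median 5.30) in WT and from 5.13 to 5.56 (median 5.47) in Cygb-/- mice. After treatment the WT arrays ranged from 3.49 to 4.27 (median 3.76) and the Cygb-/- arrays were 4.64, 3.77, 3.97, 4.37 and 3.37. The treated Cygb-/- arrays were thus spread more widely (SD 0.50) than the untreated ones (SD 0.18), and still none reached the untreated range. The fall of Hoxb8 was 1.42 (SE 0.12, adjusted p = 2.44e-07) in WT and 1.37 (SE 0.18, adjusted p = 4.32e-05) in Cygb-/- mice. Its treated means of 3.81 in WT and 4.02 in Cygb-/- mice are near the low end of the scale, where a fall can be understated.

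Hoxb7, next to Hoxb8, ranged from 5.14 to 5.47 (median 5.37) in untreated WT and from 5.20 to 5.84 (median 5.34) in untreated Cygb-/- colons on the log2 scale. Treated values of Hoxb7 were 4.12 to 4.42 (median 4.30) in WT and 4.36, 4.18, 3.91, 4.49 and 4.36 in Cygb-/- mice. Again no treated array overlapped the untreated ones of its genotype. The log2 fold changes of -1.07 (SE 0.06, adjusted p = 3.82e-09) in WT and -1.13 (SE 0.12, adjusted p = 6.19e-06) in Cygb-/- mice made Hoxb7 the member with the smallest p in WT. Its treated means of 4.27 in WT and 4.26 in Cygb-/- mice are likewise near the low end of the scale.

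**Figure D2:**
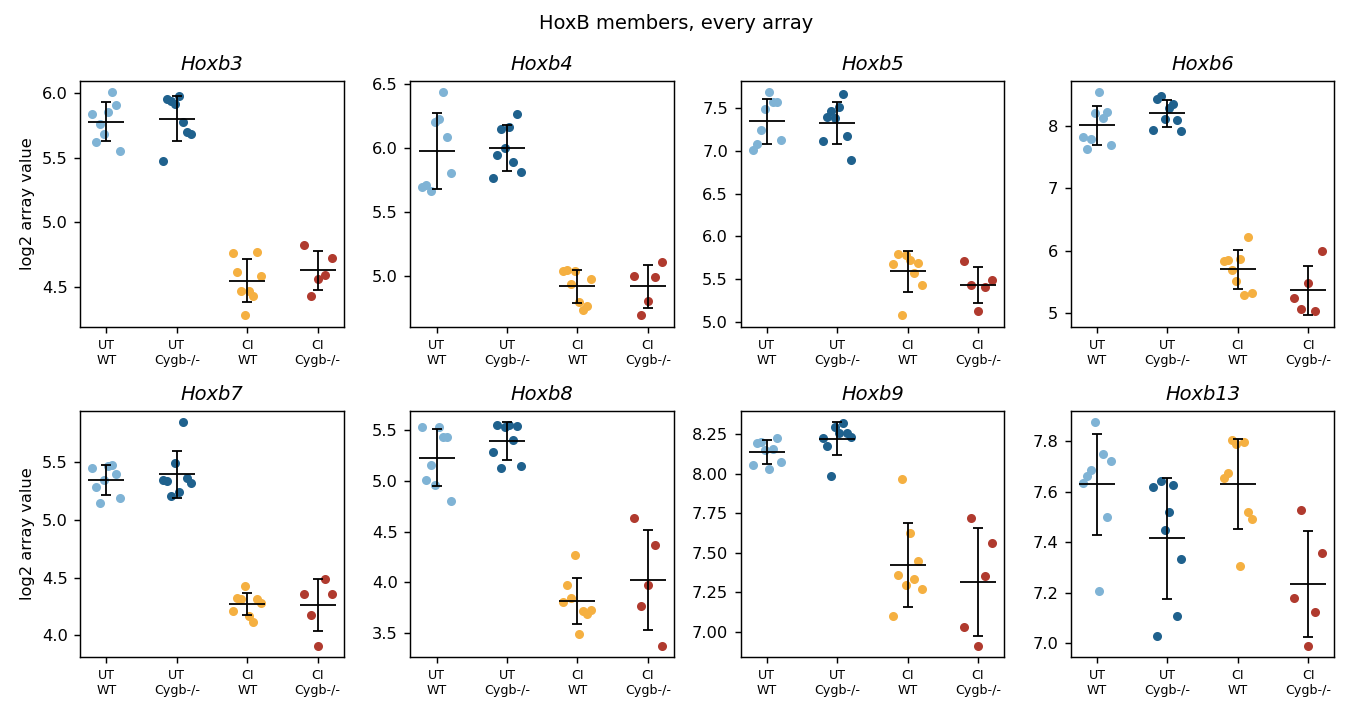
Log2 array value (vertical axis, a separate scale in each panel) of 8 HoxB members on every array of the 4 groups, untreated (UT) and after AOM/DSS (CI), with the group mean and 1 SD in black. Treated and untreated arrays do not overlap for Hoxb3 to Hoxb9, as for Hoxb6 with 7.64 or more untreated and 6.22 or less after treatment, whereas Hoxb13 overlaps across all groups.

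Among the anterior HoxB genes, Hoxb3 and Hoxb4 fell and Hoxb1 and Hoxb2 moved little. Hoxb4, known as a regulator of haematopoietic stem cells, ranged from 5.66 to 6.43 (median 5.95) in untreated WT and from 5.76 to 6.26 (median 5.97) in untreated Cygb-/- colons. After AOM/DSS the log2 values of Hoxb4 were 4.74 to 5.05 (median 4.96) in WT and 5.00, 4.69, 4.81, 4.99 and 5.11 in Cygb-/- mice, with no overlap in either genotype. The falls were 1.06 (SE 0.11, adjusted p = 1.78e-06) and 1.08 (SE 0.10, adjusted p = 2.72e-06).

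Hoxb3, a hindbrain and pharyngeal patterning gene, had log2 values from 5.55 to 6.01 (median 5.80) in untreated WT and from 5.48 to 5.97 (median 5.84) in untreated Cygb-/- colons. Treated WT arrays of Hoxb3 lay between 4.28 and 4.77 (median 4.53), and treated Cygb-/- arrays were 4.83, 4.44, 4.57, 4.59 and 4.72. Both treated groups were wholly below the untreated ones. The treatment difference was -1.23 (SE 0.08, adjusted p = 1.22e-08) in WT and -1.17 (SE 0.10, adjusted p = 1.04e-06) in Cygb-/- mice.

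Hoxb2, which patterns the hindbrain, was called in WT mice only, with means of 4.63 ± 0.17 (SD, n = 8) untreated and 4.24 ± 0.15 (SD, n = 8) treated and a log2 fold change of -0.39 (adjusted p = 0.00197). With a squamous score as a covariate that call was lost (adjusted p = 0.0794). For each array this score is the mean, over the squamous markers, of a marker's deviation from its own mean over all arrays. Among Cygb-/- mice Hoxb2 had 4.55 ± 0.14 (SD, n = 8) and 4.41 ± 0.08 (SD, n = 5), with a log2 fold change of -0.14 (adjusted p = 0.217). The interaction of Hoxb2 was 0.25 (unadjusted p = 0.036, adjusted p = 0.571), so the genotypes are not shown to differ. Hoxb1, also a hindbrain gene, was called in Cygb-/- mice only (log2 fold change -0.21, adjusted p = 0.0411, from 4.21 ± 0.10 to 4.01 ± 0.12), and in WT mice it had -0.15 (adjusted p = 0.15). That call of Hoxb1 was lost in 14 of the other settings, among them the fit without the array that did not match its labelled sex (adjusted p = 0.0901).

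At the posterior end of HoxB the genes Hoxb9 and Hoxb13, which are neighbours in the cluster, differed in their response. Hoxb9, which patterns the thoracic skeleton, ranged from 8.03 to 8.23 (median 8.16) in untreated WT and from 7.99 to 8.32 (median 8.25) in untreated Cygb-/- colons. After treatment Hoxb9 ranged from 7.10 to 7.97 (median 7.35) in WT and was 7.03, 7.72, 6.91, 7.35 and 7.56 in Cygb-/- mice, all below the untreated arrays of the same genotype. The falls of Hoxb9 were 0.71 (SE 0.10, adjusted p = 3.05e-05) and 0.91 (SE 0.12, adjusted p = 6.83e-05). With the squamous score as a covariate the Cygb-/- difference of Hoxb9 was -0.61 and was not called (adjusted p = 0.109). Hoxb13, a gene of the tail bud, prostate and distal colon, had 7.63 ± 0.20 (SD, n = 8) in untreated and 7.63 ± 0.18 (SD, n = 8) in treated WT colons. Neither its WT difference of 0.00 (SE 0.09, adjusted p = 0.999) nor its Cygb-/- difference of -0.18 (SE 0.12, adjusted p = 0.333) passed the test.

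In HoxD the called members of low number were lower and those of high number were higher. The anterior Hoxd1 and Hoxd3 and the central Hoxd8 were lower in WT mice, Hoxd9 was not called, and the posterior Hoxd10, Hoxd11, Hoxd12 and Hoxd13 were higher. In Cygb-/- mice Hoxd3 and Hoxd8 were lower and Hoxd11, Hoxd12 and Hoxd13 higher. The median log2 fold change of the 5 posterior HoxD members was 0.75 in WT and 0.78 in Cygb-/- mice.

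Hoxd13, the most posterior gene of the cluster, which shapes digits and the anal and urogenital region, rose the most of the 36 members in both genotypes. Its log2 value ranged from 7.76 to 8.33 (median 8.05) in untreated WT and from 6.29 to 8.34 (median 7.95) in untreated Cygb-/- colons. After AOM/DSS it ranged from 8.77 to 9.93 (median 9.62) in WT, and the Cygb-/- arrays had 9.50, 9.72, 9.10, 9.49 and 9.69. Every treated array was above every untreated one. The rise of Hoxd13 was 1.46 (SE 0.14, adjusted p = 8.21e-07) in WT and 1.75 (SE 0.28, adjusted p = 3e-04) in Cygb-/- mice, or 2.76-fold and 3.37-fold. Untreated Cygb-/- replicate 7, at 6.29, lay well below the next array of its group at 7.34. It was also the lowest of its group for Hoxd10, Hoxd11 and Hoxd12. Over the other settings the Cygb-/- rise of Hoxd13 ranged from 1.52 to 2.06.

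Hoxd11, which acts with its HoxA paralogue in limb and kidney, had untreated log2 values from 6.74 to 7.11 (median 6.86) in WT and from 6.16 to 7.04 (median 6.75) in Cygb-/- mice. Treated WT colons had 7.05 to 8.02 (median 7.68) and treated Cygb-/- colons 7.68, 7.82, 7.22, 7.71 and 7.95. Treated and untreated arrays of Hoxd11 overlapped in WT and were separate in Cygb-/- mice. Its rise was 0.75 (SE 0.11, adjusted p = 6.33e-05) in WT and 0.95 (SE 0.14, adjusted p = 0.000196) in Cygb-/- mice.

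Hoxd12 varied most among the treated arrays. From 4.82 to 5.38 (median 5.05) in untreated WT and 4.57 to 5.52 (median 5.10) in untreated Cygb-/- colons, its log2 values went to 4.84 to 6.66 (median 5.68) in treated WT colons and to 5.07, 6.51, 5.64, 5.67 and 6.27 in treated Cygb-/- colons. The groups overlapped in both genotypes, and Hoxd12 had an SD of 0.63 in treated and 0.17 in untreated WT colons. It rose by 0.78 in each genotype (adjusted p = 0.0117 in WT and 0.0138 in Cygb-/- mice). Both calls of Hoxd12 were lost with the squamous score as a covariate (adjusted p = 0.0852 and 0.135). Its log2 fold change was then 0.77 in WT and 1.07 in Cygb-/- mice, so the estimate was nearly unchanged in WT and larger in Cygb-/- mice. The Cygb-/- call of Hoxd12 was also lost with the replicate block (adjusted p = 0.0717). Hoxd10, a limb and motor neuron gene, went from 7.17 ± 0.13 (SD, n = 8) to 7.45 ± 0.20 (SD, n = 8) in WT mice, a rise of 0.28 (adjusted p = 0.0238) that was not called with the squamous score as a covariate (0.21, adjusted p = 0.239). The Cygb-/- difference of 0.30 was not called (adjusted p = 0.071).

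**Figure D3:**
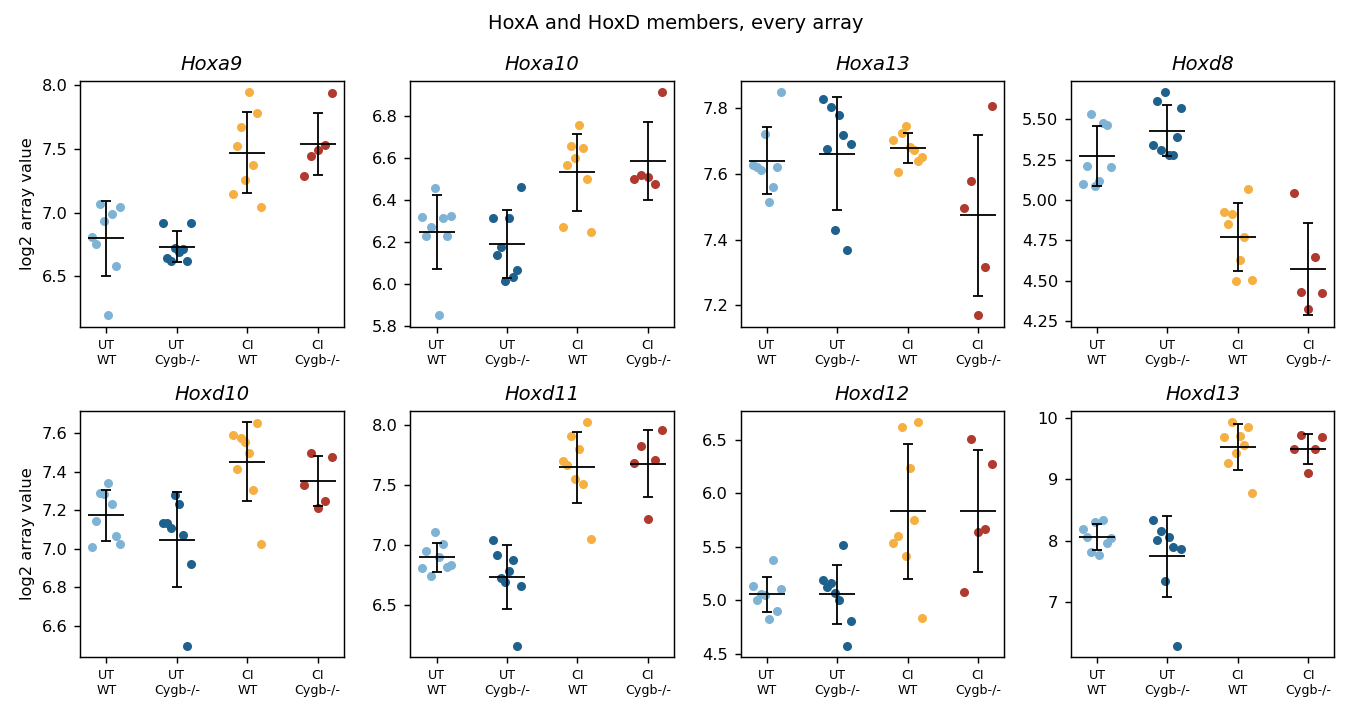
Log2 array value (vertical axis, a separate scale in each panel) of 3 HoxA and 5 HoxD members on every array of the 4 groups, untreated (UT) and after AOM/DSS (CI), with the group mean and 1 SD in black. Hoxd13 is at or below 8.34 untreated and at or above 8.77 after treatment, Hoxd8 moves the other way, and Hoxa13 overlaps across all groups.

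Hoxd8, the only central HoxD member, ranged from 5.09 to 5.53 (median 5.21) in untreated WT and from 5.28 to 5.67 (median 5.36) in untreated Cygb-/- colons. Treated log2 values of Hoxd8 were 4.50 to 5.07 (median 4.81) in WT and 5.04, 4.43, 4.32, 4.64 and 4.42 in Cygb-/- mice, without overlap with the untreated arrays. It fell by 0.50 (SE 0.10, adjusted p = 0.000917) in WT and by 0.86 (SE 0.12, adjusted p = 8.2e-05) in Cygb-/- mice. The Cygb-/- call was lost with the squamous score as a covariate (-0.80, adjusted p = 0.0512). The interaction of -0.35 (SE 0.15) had an unadjusted p of 0.0287 and an adjusted p of 0.531, so the larger fall in Cygb-/- mice is not shown to differ from that in WT mice.

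Hoxd3, which shapes the upper neck vertebrae, fell by 0.45 in WT (adjusted p = 0.000291) and by 0.50 in Cygb-/- mice (adjusted p = 0.000334). Its group means were 4.32 ± 0.19 (SD, n = 8) and 4.39 ± 0.14 (SD, n = 8) untreated, and 3.86 ± 0.09 (SD, n = 8) and 3.89 ± 0.13 (SD, n = 5) treated, in WT and Cygb-/- mice, with no overlap in either. The treated means are near the low end of the scale, where a fall can be understated. Hoxd1, which acts in sensory neurons, fell by 0.32 in WT mice (adjusted p = 0.0161, from 3.93 ± 0.18 to 3.61 ± 0.18) and had -0.23 in Cygb-/- mice (adjusted p = 0.0678). These values of Hoxd1 are near the low end of the scale, and with the squamous score as a covariate its WT difference was -0.20 and was not called (adjusted p = 0.265). Hoxd9 had log2 fold changes of -0.05 in WT (adjusted p = 0.76) and -0.32 in Cygb-/- mice (adjusted p = 0.177). Its group means of 3.72 to 4.05 are also near the low end of the scale, where a change can be hidden.

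In HoxA the calls were 3 higher and 0 lower in WT mice and 2 higher and 0 lower in Cygb-/- mice, and all 9 members had mean values above the median of all probe sets. Hoxa9, which is known from blood stem cells and leukaemia, ranged from 6.19 to 7.07 (median 6.87) in untreated WT and from 6.62 to 6.92 (median 6.70) in untreated Cygb-/- colons. Treated colons had log2 values of Hoxa9 from 7.04 to 7.95 (median 7.45) in WT, and 7.29, 7.44, 7.49, 7.53 and 7.94 in Cygb-/- mice. The arrays overlapped in WT and were separate in Cygb-/- mice. Hoxa9 rose by 0.67 (SE 0.14, adjusted p = 0.00209) and by 0.81 (SE 0.10, adjusted p = 3.21e-05).

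Hoxa10, a gene of the uterus and the lumbar skeleton, rose less, by 0.28 in WT (adjusted p = 0.028) and 0.39 in Cygb-/- mice (adjusted p = 0.00729). Means of Hoxa10 were 6.25 ± 0.18 (SD, n = 8) and 6.19 ± 0.16 (SD, n = 8) untreated and 6.53 ± 0.18 (SD, n = 8) and 6.58 ± 0.18 (SD, n = 5) treated. Its WT call was lost in 5 of the other settings, including the fits without treated WT replicate 3, 5 or 6 (adjusted p = 0.0501, 0.0576 and 0.0515). Its Cygb-/- call was lost with the squamous score as a covariate (log2 fold change 0.24, adjusted p = 0.491). The weakest call was that of Hoxa6 in WT mice, from 7.18 ± 0.30 to 7.51 ± 0.18 (log2 fold change 0.33, adjusted p = 0.0464), which was lost in 16 other settings, among them the fits that left out 1 of 13 arrays.

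No call was made for the other HoxA members in either genotype. Hoxa7, a central gene, had group means between 8.23 and 8.30 and log2 fold changes of -0.04 and 0.03. Hoxa3, an anterior gene, had -0.22 (adjusted p = 0.139) and -0.32 (adjusted p = 0.054). Hoxa13, the most posterior HoxA gene, needed for the hindgut and anus, went from 7.64 ± 0.10 (SD, n = 8) to 7.68 ± 0.05 (SD, n = 8) in WT mice, a log2 fold change of 0.04 (adjusted p = 0.637). The Cygb-/- difference of Hoxa13 was -0.19 (adjusted p = 0.255).

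HoxC values were low throughout. Group means of its 9 members ran from 2.87 to 4.32 on the log2 scale, and none of the 9 had a mean above the median of 4.81 over all probe sets. For comparison, the lower quartile of the values of an array lay between 3.26 and 3.37, and Y-linked genes, which a female sample lacks, read 1.91 to 2.85. At such values a change can be hidden, so the lack of calls there does not show that HoxC genes did not change. Only Hoxc6, a gene of the thoracic region and mammary gland, was called, in WT mice, from 3.69 ± 0.19 (SD, n = 8) to 3.19 ± 0.21 (SD, n = 8), a fall of 0.49 (adjusted p = 0.00133). Hoxc6 of Cygb-/- mice went from 3.46 ± 0.23 (SD, n = 8) to 3.14 ± 0.23 (SD, n = 5), a log2 fold change of -0.32 (adjusted p = 0.0838). Neither Hoxc5 (group means 2.87 to 2.93) nor Hoxc13 (4.21 to 4.30) was called.

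Read by paralogue number, the members of one number did not always move together. At numbers 3 and 8, 2 of 3 members were lower and 0 higher in both genotypes. At number 10, 2 of 3 were higher and 0 lower in WT mice. At number 9, Hoxa9 rose and Hoxb9 fell in both genotypes, while Hoxc9 and Hoxd9 were not called. At number 6, Hoxb6 and Hoxc6 fell and Hoxa6 rose in WT mice. At number 13, Hoxd13 rose and Hoxa13, Hoxb13 and Hoxc13 were not called in either genotype. By region, 5 of 10 anterior members were lower and 0 higher in WT mice, 6 of 11 central members were lower and 1 higher, and 1 of 15 posterior members was lower and 6 higher. The Cygb-/- counts were 4 lower and 0 higher, 5 lower and 0 higher, and 1 lower and 5 higher. All 10 anterior members had a negative log2 fold change in both genotypes, called or not. Among all 36 members 25 were negative in WT and 26 in Cygb-/- mice. Treated and untreated arrays did not overlap for 10 of 36 members in WT mice and for 13 of 36 in Cygb-/- mice, beside 8.5% and 15% of all probe sets. Calls made up 12.5% (higher) and 14.3% (lower) of the probe sets in WT, and 12.6% and 13.5% in Cygb-/- mice.

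The squamous score, built as above from markers of the stratified epithelium that lines the anus, differed widely between arrays of a group. It ranged from -0.73 to 2.89 in treated WT colons and from -0.41 to 1.75 in treated Cygb-/- colons. Without treatment the ranges were -1.14 to 0.999 in WT and -1.27 to -0.87 in Cygb-/- colons. With this score as a covariate Hoxb6 had a log2 fold change of -2.61 in WT and -3.37 in Cygb-/- mice, and Hoxd13 had 1.47 and 2.06 (adjusted p = 0.000108 and 0.034). The number of higher members was then 4 in WT and 3 in Cygb-/- mice, and of lower members 10 and 7. The squamous score itself moved with treatment, from a mean of -0.64 to 1.23 in WT mice and without overlap in Cygb-/- mice. A fit with this score therefore cannot separate its part from that of treatment. Whether a call lost in that fit depended on squamous epithelium was not tested. The smooth muscle score had a range of 0.09 to 0.46 in untreated and -0.51 to 0.11 in treated WT colons, and the leukocyte score -1.23 to -0.76 and 0.63 to 1.84, so that they moved with treatment like the Hox members. The part of smooth muscle, fibroblasts, leukocytes, endothelium and enteric neurons and glia in the changes of Hox genes was not tested.

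Between the genotypes no member was called. In untreated colons 0 of 36 were higher in Cygb-/- than in WT mice, beside 0.0121% of all probe sets, and 0 were lower, beside 0.00967%. After AOM/DSS 0 were higher, beside 0.0339%, and 0 lower, beside 0.133%. At an unadjusted p under 0.05 there were 1 of 36 members in untreated colons, beside 6.98% of all probe sets, and 4 of 36 after AOM/DSS, beside 9.69%, and the methods' t-test called 0 members in each. With so few calls among all probe sets, the counts of 0 say little about the members themselves.

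**Figure D4:**
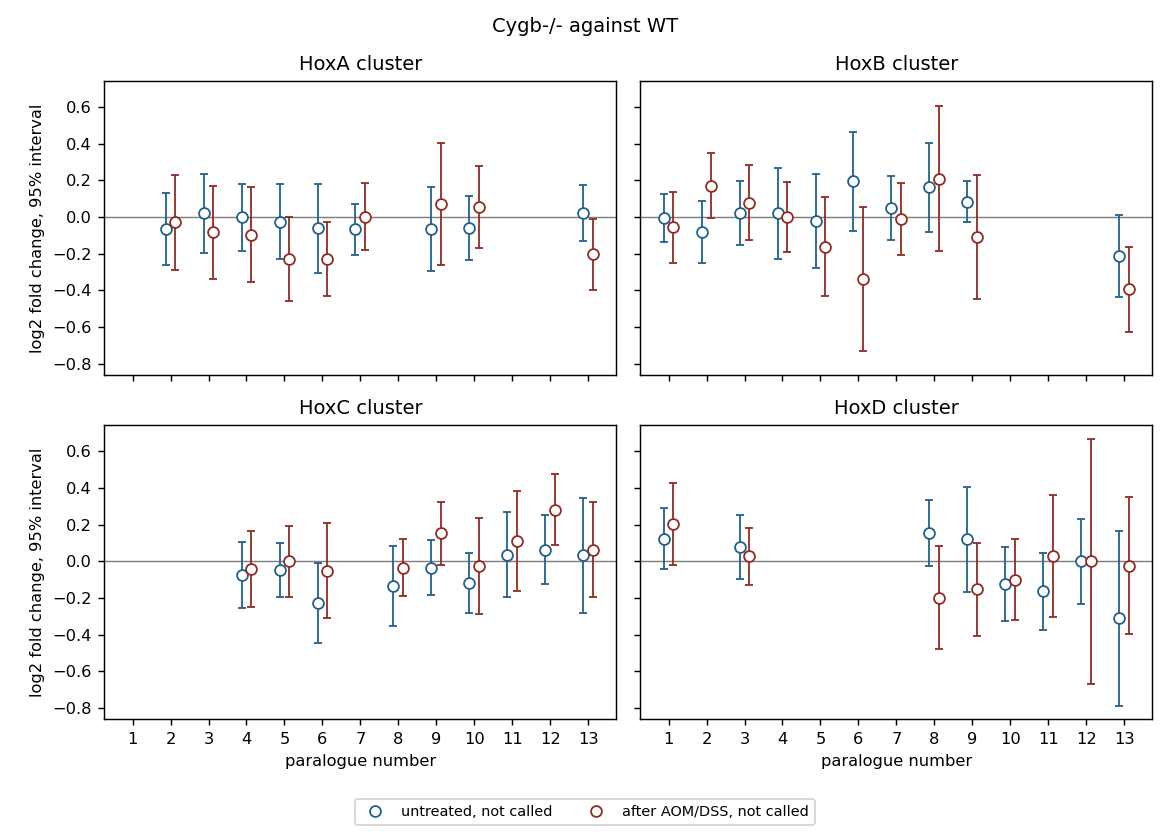
Log2 fold change of Cygb-/- against WT colons (vertical axis) with its 95% interval for each of the 36 members by paralogue number (horizontal axis) in the 4 clusters, untreated and after AOM/DSS. None was called, and the estimates lie between -0.39 for Hoxb13 and 0.28 for Hoxc12, both after AOM/DSS.

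Hoxb13 had the smallest p of the members after AOM/DSS. Its log2 values were 7.31 to 7.80 (median 7.66) in treated WT colons and 7.18, 7.53, 6.99, 7.12 and 7.36 in treated Cygb-/- colons, so that the Cygb-/- arrays lay lower on average and the groups overlapped. The difference of -0.39 had a 95% interval of -0.63 to -0.16 (unadjusted p = 0.00262, adjusted p = 0.228). In untreated colons the difference of Hoxb13 was -0.21 (95% interval -0.44 to 0.01, adjusted p = 0.731). HoxB lies on the same chromosome as Cygb, and DNA of the stem cells' strain around the deleted gene is inherited with it. Its part in these differences was not tested.

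Hoxc12 followed, with 3.62 to 3.99 (median 3.86) in treated WT colons and 4.09, 4.13, 3.87, 4.31 and 4.12 in treated Cygb-/- colons, a difference of 0.28 (adjusted p = 0.315) at a level near the low end of the scale. Hoxa6 was lower by 0.23 in treated Cygb-/- colons (adjusted p = 0.456), and Hoxa13 had a difference of -0.20 (unadjusted p = 0.0416, adjusted p = 0.49). In untreated colons Hoxc6 had the smallest p, with a difference of -0.23 (unadjusted p = 0.0418, adjusted p = 0.7). For Hoxb6 and Hoxd13 the 95% intervals of the genotype difference were -0.73 to 0.05 and -0.40 to 0.35 after AOM/DSS, so differences of such sizes are not excluded by these arrays.

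The interaction asks whether the response to AOM/DSS differed between the genotypes. It was called for 0 of 36 members in the positive direction, beside 0.046% of all probe sets, and for 0 in the negative direction, beside 0.102%. At an unadjusted p under 0.05 there were 3 members, Hoxb6, Hoxd8 and Hoxb2, whose values stand above. The interaction of Hoxd13 was 0.29 (SE 0.31, adjusted p = 0.893) and that of Hoxa9 0.14 (SE 0.19, adjusted p = 0.925).

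Genes that work with the Hox genes, or that stand upstream of them in the embryo, were counted in the same way. These counts stand beside the 12.5% higher and 14.3% lower of all probe sets in WT mice and the 12.6% and 13.5% in Cygb-/- mice. Of 6 ParaHox genes, the evolutionary sister group of the Hox genes, 2 were lower in both genotypes and none was higher. Cdx2, which sets intestinal identity, had a log2 mean of 8.96 in untreated and 6.51 in treated WT colons and of 6.90 in treated Cygb-/- colons. It fell by 2.45 (SE 0.18, adjusted p = 4.53e-08) in WT and by 2.11 (SE 0.12, adjusted p = 3.58e-08) in Cygb-/- mice. Treated and untreated arrays of Cdx2 did not overlap. Cdx1 fell by 0.44 (adjusted p = 0.0418) and by 0.59 (adjusted p = 0.000226).

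TALE homeodomain proteins of the Pbx, Meis and Pknox families bind DNA together with Hox proteins. Of 8 measured genes 1 was higher and 2 lower in WT mice, and 1 higher and 3 lower in Cygb-/- mice. Meis3 fell by 0.87 (SE 0.06, adjusted p = 1.47e-08) in WT and by 0.48 (SE 0.08, adjusted p = 0.000581) in Cygb-/- mice, and Pbx3 by 0.37 and 0.50 (adjusted p = 0.00095 and 0.0012). Pknox1 rose by 0.24 and 0.33 (adjusted p = 0.0108 in both), and Meis1 fell by 0.29 in Cygb-/- mice (adjusted p = 0.0431).

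Retinoic acid, made from vitamin A, switches on Hox genes in the embryo. Of 16 measured genes of its pathway 2 were higher and 7 lower in WT mice, and 2 higher and 4 lower in Cygb-/- mice. The enzymes that make retinoic acid diverged. Aldh1a1 fell from log2 means of 10.18 and 10.52 to 7.61 and 7.22, by 2.57 in WT (adjusted p = 5.78e-10) and by 3.30 in Cygb-/- mice (adjusted p = 4.09e-08), and Aldh1a2 fell by 0.85 in each (adjusted p = 0.000184 and 0.000137). Aldh1a3 rose from 6.19 and 6.02 to 9.34 and 9.58, by 3.15 (adjusted p = 1.11e-09) and 3.57 (adjusted p = 3.23e-10). Stra6, a membrane receptor that takes up retinol, rose by 3.13 (adjusted p = 4.35e-06) and 3.08 (adjusted p = 4.16e-05).

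Polycomb proteins keep Hox genes silent and trithorax proteins keep them active. Of 25 measured genes 5 were higher and 2 lower in WT mice, and 9 were higher and 3 lower in Cygb-/- mice. The WT counts were near the share over all probe sets. Pcgf2, a subunit of Polycomb repressive complex 1, fell by 0.46 (adjusted p = 4.58e-05) and 0.40 (adjusted p = 0.0141), and Cbx7, another, by 0.31 (adjusted p = 0.0384) and 0.37 (adjusted p = 0.000265). Ash2l, a shared subunit of the trithorax methyltransferases, rose by 0.36 (adjusted p = 0.000421) and 0.31 (adjusted p = 0.0107), and Rbbp5, its partner, by 0.20 and 0.21 (adjusted p = 0.00494 and 0.0174). All of these changes were smaller than those of Hoxb6 and Hoxd13.

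**Figure D5:**
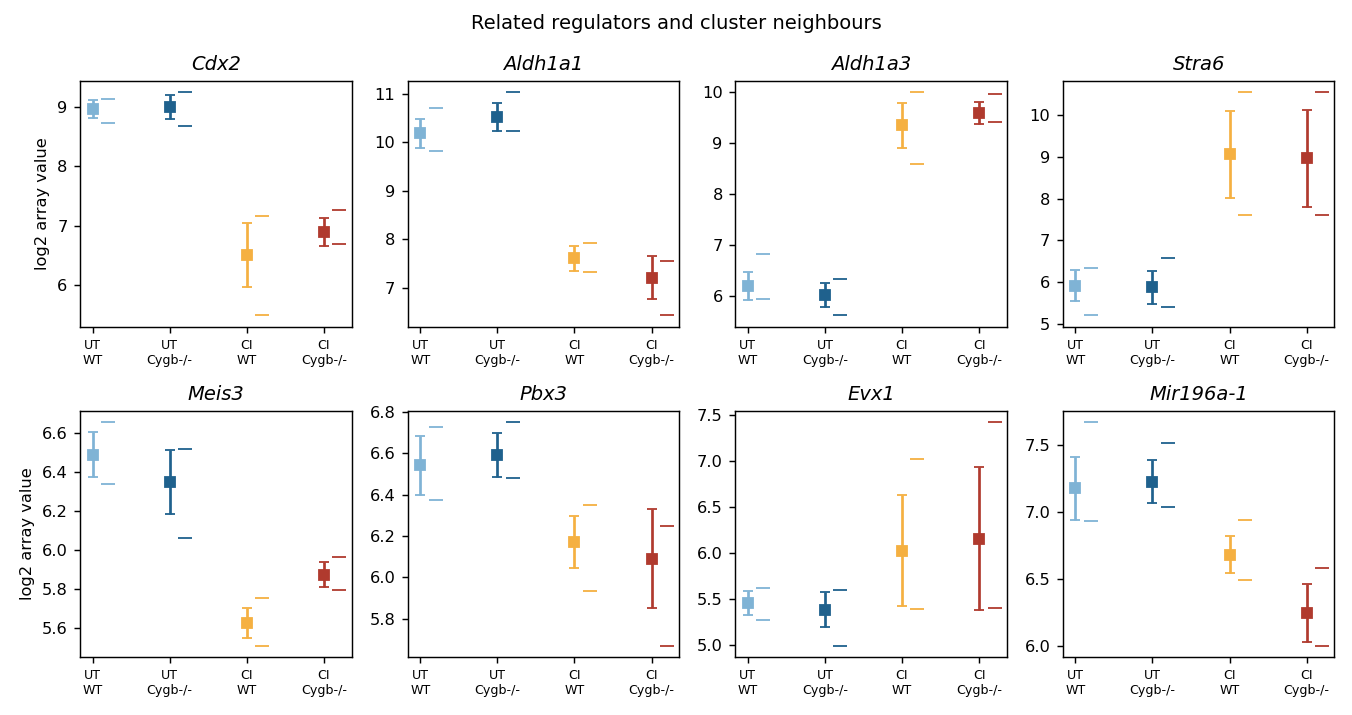
Log2 array value (vertical axis, a separate scale in each panel) of 8 related genes in the 4 groups, untreated (UT) and after AOM/DSS (CI), as group means with 1 SD (squares and bars) and the lowest and highest array (short dashes to the right). Cdx2 and Aldh1a1 are lower after treatment and Aldh1a3 and Stra6 higher, with no overlap between treated and untreated arrays for these 4 genes.

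Other transcripts of the clusters and their borders were followed as well. Of 10 measured, 4 were higher and 2 lower in each genotype. Evx1, a homeobox gene next to Hoxa13, rose by 0.57 (adjusted p = 0.0456) and 0.77 (adjusted p = 0.0379), and Skap2, an adaptor protein gene beyond the anterior end of HoxA, by 0.83 (adjusted p = 5.17e-06) and 0.92 (adjusted p = 8.37e-07). Lnpk, beside HoxD, rose by 0.41 and 0.36 (adjusted p = 0.000392 and 0.000955). Hoxaas3, named as an antisense RNA of HoxA, fell by 0.43 and 0.59 (adjusted p = 0.00104 and 0.00115).

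MicroRNA genes also lie in the clusters, and miR-196 is known to target Hoxb8 messenger RNA. Of 4 measured, 2 were lower in WT and 1 in Cygb-/- mice. The probe set of Mir196a-1, in HoxB, had log2 means of 7.17 and 7.22 untreated and 6.68 and 6.24 treated, and fell by 0.50 in WT (adjusted p = 0.000832) and by 0.98 in Cygb-/- mice (adjusted p = 8.67e-06). That of Mir196a-2, in HoxC, fell by 0.24 in WT mice (adjusted p = 0.0433) at a mean of 3.73 untreated. Both genes give the same mature arm and differ in the other, which these probe sets do not tell apart. The sequences, from RefSeq's GRCm38.p6 table and with the seed, bases 2 to 8, in capitals, are shown because the seed is what pairs with a target.
miR-196a-5p, from both genes (chr11:96265187-96265208, chr15:102973365-102973386, plus strand): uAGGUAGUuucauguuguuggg
miR-196a-1-3p (chr11:96265225-96265246, plus strand): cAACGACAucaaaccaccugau
miR-196a-2-3p (chr15:102973401-102973422, plus strand): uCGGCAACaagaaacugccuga
Mir196a-1 lies between Hoxb9, which fell, and Hoxb13, which was not called. Levels of the mature arms were not analysed here.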

How the data were processed

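The deposited values are log2 values that the authors made with RMA and then normalized between arrays. No version or genome build is given in the sources used here. They were used as deposited. Chromosomes are those of RefSeq GRCm38.p6. Linear models were fitted to all 41345 probe sets (limma version 3.58.1, R version 4.3.3, lmFit with eBayes) on the groups of each comparison, and on all 4 groups for the interaction, with Benjamini-Hochberg adjustment and a threshold of 0.05. Of the probe sets, 1395 share their values with another. The number of arrays limits the precision. Members and lists were chosen with earlier results of these data known. Named in full are members called in any comparison, the 3 with the smallest p in each comparison and the highest and lowest of each cluster. Of other lists up to 4 called genes by smallest p were named, with some neighbours added after their values were seen. The procedure was tested on simulated data. Alternatives covered normalization, centring, a filter on low values, the variance model, array weights, the methods' t-test, the replicate block, probe set choice and each array left out, and the squamous score as a covariate was chosen after seeing the data.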

Additional observations from a re-analysis of the deposited data

Results flagged for a closer look

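Of 104 groups tested among 26 named members, 12 held an array set apart from the rest of its group (11.5%), where chance gives about 1 in 20. Among untreated Cygb-/- colons these were Hoxd10 (6.50, others 6.92 to 7.28) and Hoxd11 (6.16, others 6.65 to 7.04) in replicate 7, Hoxa7 (7.99, others 8.19 to 8.32) and Hoxc13 (3.64, others 4.22 to 4.72) in replicate 5, Hoxb7 (5.84, others 5.20 to 5.49) and Hoxc6 (3.96, others 3.16 to 3.50) in replicate 6, and Hoxb9 (7.99, others 8.18 to 8.32) in replicate 3. Among untreated WT colons they were Hoxa10 in replicate 5 (5.85, others 6.23 to 6.46), Hoxb2 in replicate 8 (5.00, others 4.47 to 4.70) and Hoxc5 in replicate 2 (2.75, others 2.90 to 3.01). Treated Cygb-/- replicate 5 stood apart for Hoxa10 (6.91, others 6.48 to 6.52) and Hoxb2 (4.55, others 4.35 to 4.40).

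Of the 7 probe sets that list a Hox gene together with another gene, which the comparisons leave out, 2 were lower after AOM/DSS in both genotypes. Probe set 17268322 had log2 fold changes of -0.50 in WT and -0.40 in Cygb-/- mice, and probe set 17372092 had -0.81 and -1.06. Neither is given a gene name here.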

How the results depend on the processing

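Of the 34 calls of single members, 23 kept call and direction in every setting that tested the member, 11 lost the call in at least 1, and none reversed. A member left out of a setting, as by the filter on low values, was not counted as a lost call. In WT mice Hoxc6 was thus tested in 24 settings and Hoxb6 in 26. Against 7 higher members in WT mice, there were 4 when quantile normalization was repeated, 4 with the squamous score as covariate and 4 with the methods' t-test, which corrects p across probe sets past a 1.5-fold change. Against 12 lower members in WT mice there were 6 under the filter on low values, which tests fewer genes, and 7 with the methods' t-test. Against 5 higher members in Cygb-/- mice there were 3 with the squamous score as covariate. With one array left out, 5 to 7 were higher and 12 to 14 lower in WT, and 5 higher and 9 to 11 lower in Cygb-/- mice.

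Arrays with the same replicate number share only a number. Their residuals correlated at 0.076 on average in the treated groups (3 of 5 pairs over 0.1), and at -0.0519, -0.0076 and -0.0218 in the other comparisons. With the replicate block 5 members were higher and 12 lower in WT, and 4 higher and 10 lower in Cygb-/- mice, and 0 were called between genotypes or for the interaction. Over all probe sets the replicate block moved the calls from 69 to 11 and from 9 to 5 for the treated and untreated genotypes, from 11053 to 9268 and from 10805 to 7015 for treatment, and from 61 to 54 for the interaction.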

Other observations

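Hoxb6 fell and Hoxd13 rose between untreated and treated groups. Within groups of 8 arrays no relation between the 2 genes passed the test, in a family of 9 relations that also held the squamous score against each gene. Pearson's r of Hoxb6 with Hoxd13 was -0.15 in untreated WT (exact permutation p = 0.726), 0.22 in untreated Cygb-/- (exact permutation p = 0.673) and 0.56 in treated WT colons (exact permutation p = 0.147), with Spearman's rho of -0.19, 0.31 and 0.48 (exact permutation p = 0.665, 0.462 and 0.243). Adjusted over the 9 relations the p-values were 0.817, 0.817 and 0.467. Without the 2 arrays farthest from the median of Hoxd13, r was 0.26, -0.14 and 0.63. The genes and relations were chosen after their values were seen, and 8 arrays show only strong relations.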
